A study of Mus musculus with 6 samples.

Results

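The genes of oxidative phosphorylation encode the subunits of the 4 respiratory chain complexes and of ATP synthase. They were taken as every probe whose gene symbol begins with Nduf followed by a, b, c, s or v and a number (complex I), is Sdha, Sdhb, Sdhc or Sdhd (complex II), begins with Uqcr (complex III), begins with Cox4 to Cox8 followed by a letter (complex IV) or begins with Atp5 (complex V, ATP synthase). This gave 83 genes with 112 probes, out of 20659 genes that could be named on the array. Complex I held 36 of them, complex II 4, complex III 8, complex IV 18 and complex V 17. In RefSeq 104 mouse symbols match the rule, and the 21 that had no probe are 18 pseudogenes and the protein-coding genes Ndufb1, Ndufb4b and Ndufb4c. The rule uses names alone and no measured value. Subunits with other names, such as Cyc1, are described beside the members, and the subunits encoded by the mitochondrial genome were not analysed here.

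The samples were primary osteoblasts from the calvaria of newborn CD1 mice aged 2 to 5 days, measured on 6 one-color Agilent arrays. Undifferentiated osteoblasts were grown to confluence in MEM with 10% FBS (2 arrays), differentiated osteoblasts were kept after confluence for 30 days in differentiation medium (2 arrays), and cabozantinib-treated osteoblasts had cabozantinib (XL184), an inhibitor of MET and VEGFR2, in that medium for the 30 days (2 arrays). The study's results text gives an earlier day for the treated and untreated differentiated cells than the labels do, and the day of the labels is used. The labels number the arrays of each group 1 and 2 and do not say whether the cells came from separate cultures or litters, so p-values measure the spread between these arrays only, which may be technical.

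Oxidative phosphorylation is the last stage of respiration. Complexes I and II pass electrons from NADH and succinate to ubiquinone, complex III hands them to cytochrome c, and complex IV reduces oxygen. Complexes I, III and IV pump protons out of the mitochondrial matrix, and ATP synthase makes ATP as the protons return. Several complex IV subunits exist as a widely expressed isoform and a tissue-restricted one, for example Cox8a and the heart, skeletal muscle and brown fat isoform Cox8b. Osteoblasts use both glycolysis and respiration, and the balance shifts as they mature.

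Levels are log2 signals minus the 75th percentile of each array, so a level of 0 is a probe as bright as that percentile, and a difference of 1 is a 2-fold change. Between 58.8% and 72.9% of the spots on an array were well above background, and no spot was saturated. The 4 arrays without cabozantinib shared 1 scan date and both cabozantinib arrays had another, so the scan and the treatment cannot be told apart. Among the 9 osteoblast markers tested, Col1a1, Col1a2, Sparc and Alpl were well above background on all 6 arrays, whereas Runx2 was so on 3 and Sp7 on 4. The other 3, Bglap2 (5.06), Dmp1 (3.99) and Ibsp (2.20), were so on all 6 and rose with differentiation. Runx2 differed by -1.92 (adjusted p = 0.0775, limma) and Sp7 by -1.85 (adjusted p = 0.0696, limma), and none of the 9 was called lower. Every array had the 10 macrophage and osteoclast markers that were tested well above background, and 6 of them rose with differentiation. In such bulk RNA, fewer cells of a type and less RNA per cell cannot be told apart.

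The promoters of these genes are printed for the 2 isoforms of COX8, of which 1 rose and 1 did not, and for Ndufa11 and Ndufs8, which fell with differentiation. Sequences are from RefSeq (GRCm38.p6), 5′ to 3′ on the strand of the gene, from 250 bases before the start of the transcript to 30 after it. Capitals mark matches to CGCATGCG, the core of the site of NRF1, or to CCGGAAG, which ETS family factors such as GABP bind, on either strand. They lie at chr7:140900417-140900696, minus strand (Cox8b), chr19:7217587-7217866, minus strand (Cox8a), chr17:56717512-56717791, plus strand (Ndufa11) and chr19:3912745-3913024, minus strand (Ndufs8).
Cox8b: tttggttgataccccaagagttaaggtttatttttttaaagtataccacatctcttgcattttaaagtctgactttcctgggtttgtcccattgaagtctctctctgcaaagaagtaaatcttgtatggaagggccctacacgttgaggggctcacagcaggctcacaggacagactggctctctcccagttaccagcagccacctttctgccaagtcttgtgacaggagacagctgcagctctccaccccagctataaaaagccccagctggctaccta
Cox8a: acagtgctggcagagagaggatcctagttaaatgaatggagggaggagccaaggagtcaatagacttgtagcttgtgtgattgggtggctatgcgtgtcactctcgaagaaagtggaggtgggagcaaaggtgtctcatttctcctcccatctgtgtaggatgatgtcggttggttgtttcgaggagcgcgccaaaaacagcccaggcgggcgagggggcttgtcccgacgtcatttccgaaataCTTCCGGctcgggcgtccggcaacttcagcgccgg
Ndufa11: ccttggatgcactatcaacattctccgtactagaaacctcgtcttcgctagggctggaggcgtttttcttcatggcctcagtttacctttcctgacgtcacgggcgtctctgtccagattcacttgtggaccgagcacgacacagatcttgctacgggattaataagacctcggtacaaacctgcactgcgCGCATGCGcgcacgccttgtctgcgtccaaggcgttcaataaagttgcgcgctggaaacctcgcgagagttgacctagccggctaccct
Ndufs8: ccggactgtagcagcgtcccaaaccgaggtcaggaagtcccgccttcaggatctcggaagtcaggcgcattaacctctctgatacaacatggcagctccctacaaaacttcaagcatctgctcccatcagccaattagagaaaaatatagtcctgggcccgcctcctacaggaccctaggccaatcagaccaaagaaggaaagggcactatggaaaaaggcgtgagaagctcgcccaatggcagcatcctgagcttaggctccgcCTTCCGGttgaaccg

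RefSeq promoters were found for 67 of the 81 members tested, in 72 windows of 250 bases before to 50 bases after a start. CGCATGCG was found in 9 of these windows (12.5%, against 1.87% of all 32851 promoters), and CCGGAAG in 17 (23.6%, against 8.86%). AAGATGGC, a site of YY1, was in 10 windows (13.9%, against 2.75% of all promoters). TCAAGGTCA, a site of ESRRA, was in 2 windows (2.78%, against 0.423%). Both strands were searched, and none of the 4 motifs contains another. Member promoters had a median of 14 CG pairs in the 250 bases before the start, and all promoters had a median of 6. The Cox8a promoter held 11 CG pairs and the Cox8b promoter 1, and the Cox8b window held none of the 4 motifs. Of the 5 members called lower with differentiation, Ndufa11 and Uqcrc1 held the NRF1 motif and Ndufs8 the ETS motif, while Atp5d and Ndufa10 held none. A match to these letters is a description of the sequence and does not show binding.

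Whether differentiation changed the genes of the respiratory chain was asked by comparing differentiated with undifferentiated osteoblasts. Most subunits kept their level within the error, and 7 of the 81 genes tested passed the test. Of these, 2 rose, both of them tissue-restricted isoforms of complex IV (Cox8b and Cox4i2). The other 5 fell, and they were 3 subunits of complex I (Ndufa11, Ndufa10 and Ndufs8), 1 of complex III (Uqcrc1) and 1 of ATP synthase (Atp5d). Over all 23083 genes tested by limma at an adjusted p under 0.05, 5.26% were called higher and 4.45% lower, against 2.47% and 6.17% of the members. These shares lie near the background, and the counts are no result about the group as a whole. Without the second undifferentiated array 3 members were called, and without the first differentiated array 4.

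The median difference over the 81 members was 0.10 on the log2 scale, against 0.11 over all genes tested, and 73 members changed by less than 2-fold. The sign was positive in 51 members, and the median was 0.82 without the first and -0.65 without the second undifferentiated array. The fitted standard error had a median of 0.55, which gives a 95% interval of 1.24 to either side, before adjustment for the number of probes. Smaller changes of a single subunit were not detectable with these arrays. The adjusted test asked for more, and Cox6b1 at -1.31 was not called (adjusted p = 0.149, limma). The 2 members not tested, Cox7b2 and Cox8c, were well above background on 1 array and on none. Complex medians were 0.04 for complex I, 0.36 for complex II, 0.13 for complex III, 0.09 for complex IV and 0.17 for complex V. Both differentiated arrays lay above both undifferentiated arrays in 8 of the 81 members and below them in 7. Over all 23083 genes tested this was so in 5978 and 4481, so such a gap was common.

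**Figure D1:**
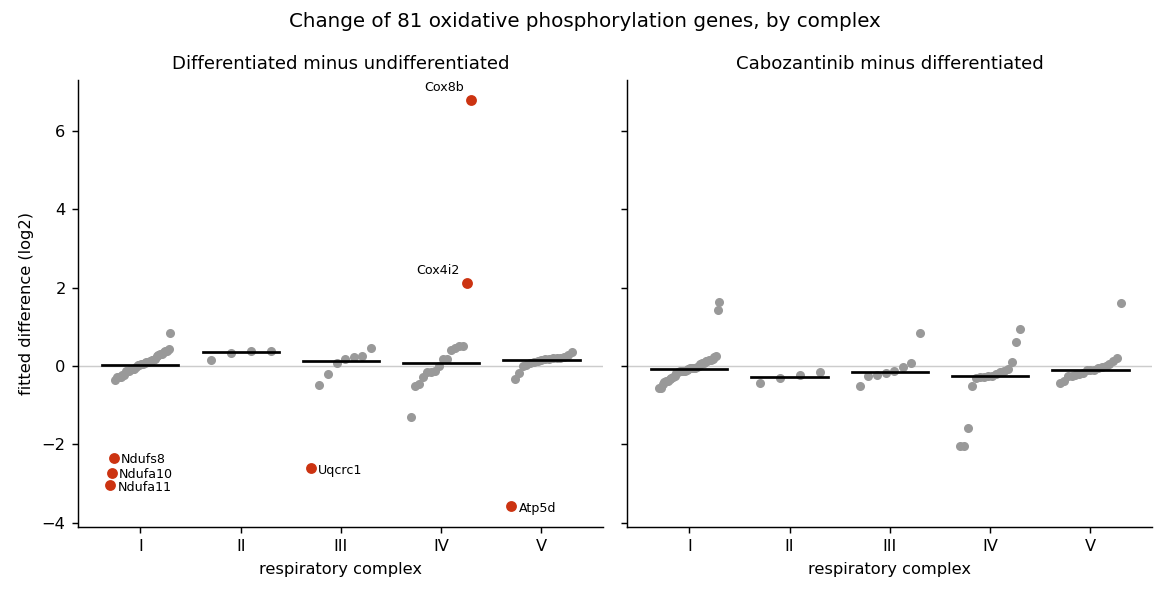
Fitted log2 difference of each of the 81 members tested (points), grouped by respiratory complex (x axis), for differentiated minus undifferentiated (left) and cabozantinib minus differentiated osteoblasts (right). Red points passed the limma test at an adjusted p under 0.05 and are named, grey points did not, and black lines are the medians of the complexes. The 7 red points lie between -3.58 and 6.79 on the left, there is none on the right, and all medians lie near 0.

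The level of the whole group differed more between arrays of 1 group than between groups. The median level of the members was 5.95 and 4.88 in undifferentiated, 5.18 and 5.66 in differentiated and 5.14 and 5.38 in cabozantinib-treated cells. On the first undifferentiated array 73 of the 81 members were higher than on the second, by a median of 0.91. The genes of the cytosolic ribosome moved with them, with medians of 7.53 and 6.42 on the same arrays. After quantile normalization, which gives all arrays the same distribution of values, the member medians lay between 15.21 and 15.52 on the log2 signal scale. A shift of all subunits together was therefore within the replicate error on either scale.

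**Figure D2:**
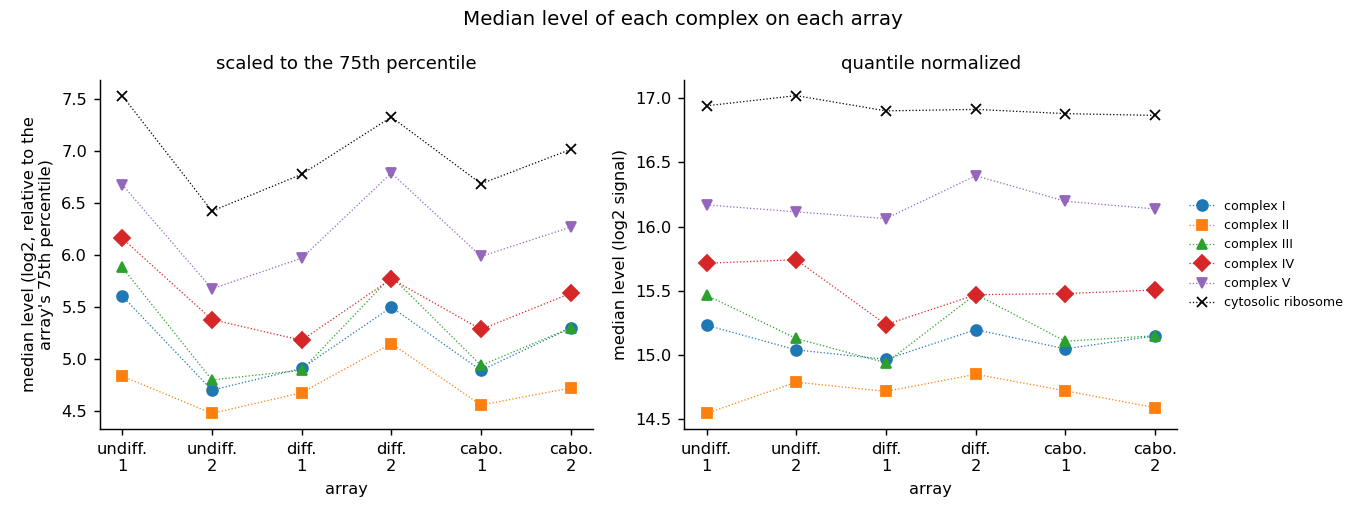
Median level of the members of each complex and of the cytosolic ribosomal protein genes (y axis, log2) on each of the 6 arrays (x axis), scaled to the 75th percentile of the array (left) or quantile normalized (right). On the left all lines drop from undifferentiated array 1 to array 2 and rise from differentiated array 1 to array 2, and on the right these gaps are smaller.

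Complex IV held the gene with the largest change. Cox8b, the small subunit isoform of heart, skeletal muscle and brown fat, had levels of -4.48 and -5.70 in undifferentiated, 1.33 and 2.08 in differentiated, and -0.67 and -0.03 in cabozantinib-treated cells. Both differentiated arrays lay above both undifferentiated arrays, with the cabozantinib arrays between them. The difference with differentiation was 6.79 (SE 0.60), 111-fold, and the adjusted p was 0.000317 (limma), the lowest of all members. The undifferentiated levels were well above background on both arrays but dim, so the size of the fold rests on low values. Cox8a, the widely expressed isoform, had levels of 7.32 and 6.41 undifferentiated, 6.65 and 7.08 differentiated, and 6.64 and 6.96 with cabozantinib. These groups overlapped, and the difference of Cox8a was 0.00 (95% interval -1.20 to 1.21), whereas the interval of Cox8b was 5.46 to 8.13.

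Cox4i2, the isoform of subunit 4 found mainly in lung and placenta and induced by low oxygen, had levels of 0.20 and -0.60 undifferentiated, 1.40 and 2.43 differentiated, and 0.03 and 0.61 with cabozantinib. The differentiated arrays were above the others, and the other groups overlapped. The rise was 2.11 (SE 0.57, adjusted p = 0.0450, limma), 4.32-fold. Its call was lost in 7 of 17 other limma fits and in the methods' paired t-test. Without the second undifferentiated array the difference was 1.31, and without the second differentiated array 1.54. The 17 fits are not all separate, since leaving out either cabozantinib array repeats the fit on the 4 arrays compared. After adjustment the t-test called no gene of any kind. Cox4i1, the partner of Cox4i2, differed by -0.46 (SE 0.53) and did not pass the test.

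The other tissue-restricted isoforms did not pass the test with differentiation. Cox6a2, the heart and muscle isoform of subunit 6a, differed by 0.52 (SE 0.57), Cox7a1, that of subunit 7a, by -0.51 (SE 0.54), and Cox6b2, the testis isoform of subunit 6b, by -0.14 (SE 0.54). Cox6b1, the widely expressed isoform, had levels of 2.49 and 2.82, then 1.52 and 1.18, then 2.41 and 2.19, so both differentiated arrays were below the other 4. Its difference was -1.31 (SE 0.49, adjusted p = 0.149, limma). It passed the test without the replicate number in the fit (adjusted p = 0.0475, limma), where 3097 of all genes were called, against 2242 with it. With the undifferentiated numbers exchanged, a setting chosen after seeing the data, its adjusted p was 0.00826 (limma) and 6029 genes were called. Without 1 array its difference ranged from -1.61 to -1.01. Cox6c differed by 0.51 and Cox7c by 0.40, and both overlapped between the groups. Cox7a1 and Cox6b2 changed sign when an array was left out, as Cox6c did.

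**Figure D3:**
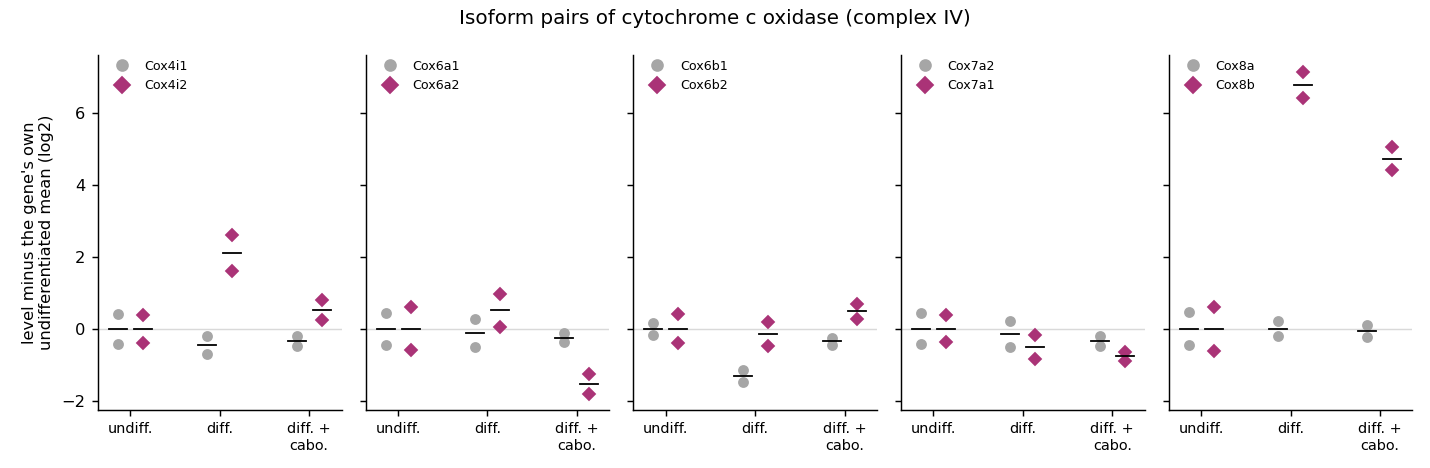
Level of 5 pairs of complex IV isoforms on each array, as the difference from the undifferentiated mean of the same gene (y axis, log2), in undifferentiated, differentiated and cabozantinib-treated osteoblasts (x axis). Circles are the widely expressed and diamonds the tissue-restricted isoforms, and black lines are means of 2 arrays. Cox8b stands 6.79 above its undifferentiated mean in differentiated cells, Cox4i2 2.11, and both are lower with cabozantinib.

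Markers of cell types that use such isoforms were read beside them. Of 6 adipocyte markers tested, 3 rose with differentiation (Fabp4, Adipoq and Pparg), and the summed level of the list was 1.72 and 1.58 undifferentiated, 4.78 and 5.80 differentiated, and 3.51 and 3.39 with cabozantinib. None of the 6 fell with cabozantinib in the test, with Fabp4 at -2.05 (adjusted p = 0.0630, limma). Plin1, which differed by -1.52 with differentiation (adjusted p = 0.354, limma), exceeded background clearly on both arrays of undifferentiated cells, on 1 of differentiated cells and on none with cabozantinib, and Lep and Ucp1 did so on none of the 6. Of 11 skeletal muscle markers tested, 3 rose (Myh1, Myh4 and Tnni2) and 2 fell (Acta1 and Actn3). The summed level of the muscle list was 2.46 and 2.26, then 1.83 and 2.50, then 2.86 and 3.01, and the groups without cabozantinib overlapped. Actn2 was not well above background on any array. The summed level of the adipocyte list, to which Fabp4 gave most, had the same order of groups as Cox8b, and so had Fabp4, Adipoq and Pparg. Cidea, Cidec and Plin1 did not have it, and the median level of the list overlapped between the groups. The part of such cells in the result was not tested.

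Complex I takes electrons from NADH. Of its 36 members 3 fell and none rose, and the other 33 lay between -0.36 (Ndufa2) and 0.83 (Ndufa1). Ndufa11, a membrane arm subunit, had levels of 0.66 and 0.58 undifferentiated, -3.11 and -1.74 differentiated, and -0.84 and -1.12 with cabozantinib, and the 3 groups did not overlap. It fell by 3.05 (SE 0.56, adjusted p = 0.00799, limma). Ndufs8, a subunit that carries iron-sulfur clusters, was 0.61 and 0.83, then -2.13 and -1.12, then 0.38 and -0.37, and it fell by 2.35 (SE 0.56, adjusted p = 0.0260, limma). The undifferentiated arrays were highest and the differentiated arrays lowest for both genes.

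Ndufa10, an accessory subunit, was dim. It was -2.49 and -2.02 undifferentiated, -4.03 and -5.94 differentiated, and -4.48 and -6.58 with cabozantinib. Both arrays of undifferentiated cells, but only 1 array of each other group, had it well above background, so that the low values are near background. It fell by 2.73 (SE 0.66, adjusted p = 0.0288, limma), which rests in part on a value near background. The difference was -1.49 without the second undifferentiated and -2.18 without the second differentiated array, where it was not called, and it was not tested once a probe had to be above background on all 6 arrays.

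The other members of complex I moved little. The largest positive difference was that of Ndufa1, 0.83 (SE 0.55), with levels of 6.03 and 5.21 undifferentiated and 6.08 and 6.83 differentiated. These did not overlap, but the adjusted p was 0.482 (limma). Without the first undifferentiated array the difference was 1.52 and passed the test (adjusted p = 0.0482, limma), and without the second it was 0.14. Ndufa4, which was counted here by its name although the protein is now placed in complex IV, differed by 0.30, and its hypoxia-induced relative Ndufa4l2 by 0.36 (SE 0.61). In both genes the groups overlapped.

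Complex II, succinate dehydrogenase, is also an enzyme of the citric acid cycle and has no subunit from the mitochondrial genome. All 4 genes lay close together, from 0.17 for Sdhc to 0.38 for Sdhd, and none passed the test. Sdha, the flavoprotein, was 4.36 and 4.17 undifferentiated and 4.56 and 4.66 differentiated, at a difference of 0.34 (SE 0.49). These groups did not overlap, which was common over all genes. Sdhc and Sdhd changed sign when 1 array was left out.

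In complex III, Uqcrc1, a core protein of the matrix side, was the only gene of 8 to pass the test. It was 1.26 and 0.70 undifferentiated, -2.17 and -1.09 differentiated and -0.83 and -0.76 with cabozantinib, and the 3 groups did not overlap. It fell by 2.61 (SE 0.55, adjusted p = 0.0151, limma). Its partner Uqcrc2 was 4.43 and 4.23, then 4.48 and 4.63, then 4.35 and 4.49, a difference of 0.22 with differentiation. Uqcrfs1, the Rieske iron-sulfur protein, differed by 0.27 and Uqcrb by 0.46 (SE 0.55).

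In ATP synthase, Atp5d, the delta subunit of the central stalk, fell most. It was 1.89 and 1.79 undifferentiated, -1.997 and -1.49 differentiated, and -0.02 and -0.26 with cabozantinib. The 3 groups did not overlap, with the cabozantinib arrays in the middle. It fell by 3.58 (SE 0.50, adjusted p = 0.00224, limma), 12.0-fold. It was called in each of 17 other limma fits, as was the rise of Cox8b, while the methods' paired t-test called neither. The 17 fits are not all separate. Leaving out either cabozantinib array repeated the fit on the 4 arrays compared, which had an SE of 0.73 for Atp5d and Ndufa11 alike. The other 16 genes, including the catalytic subunit Atp5b and the ring subunits Atp5g1, Atp5g2 and Atp5g3, lay between -0.33 (Atp5o) and 0.36 (Atp5j).

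**Figure D4:**
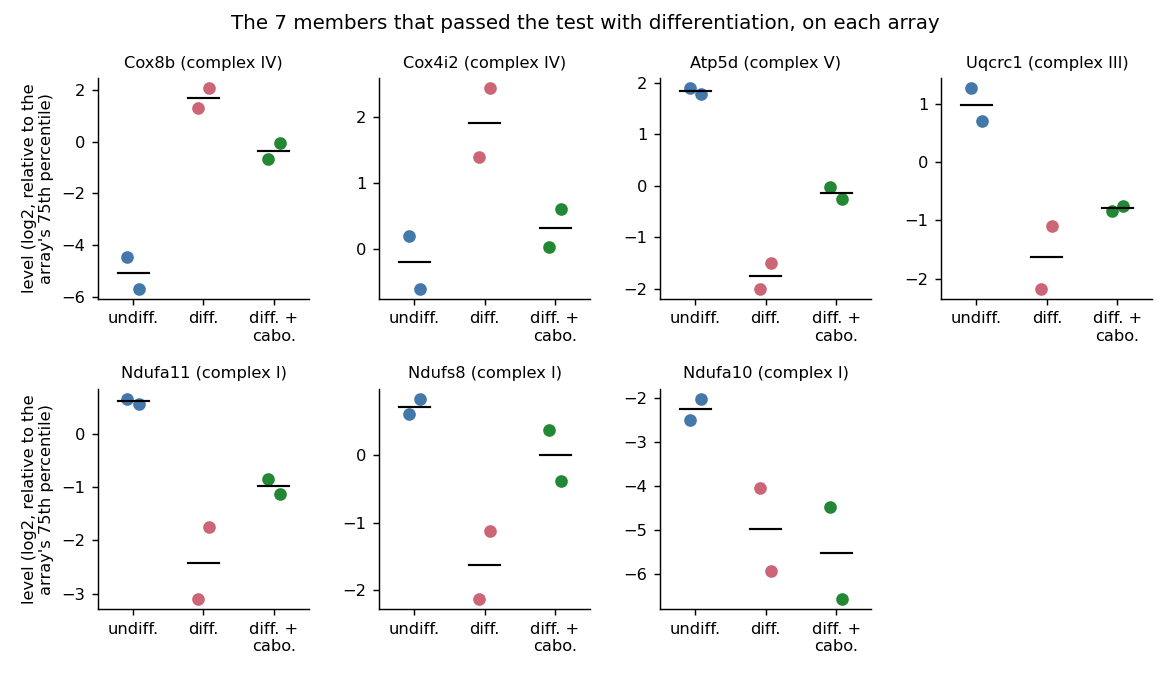
Level of the 7 members that passed the test with differentiation on each of the 6 arrays (y axis, log2 relative to the 75th percentile of the array, with a scale of its own in each panel). Points are single arrays, and black lines are means of 2. Cox8b and Cox4i2 are highest and the other 5 genes lower in differentiated than in undifferentiated cells, and cabozantinib arrays lie between those groups for Cox8b, Atp5d, Uqcrc1, Ndufa11 and Ndufs8.

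The 5 members that fell had each 1 probe, and their mean levels over the arrays ran from -4.26 to -0.01. Only 8 of the 81 members lie in that range, and 5 of these 8 fell, whereas 6.22% of the 9112 genes of all kinds in that range were called lower. Of the 73 members above the range, 1 was called (Cox4i2), against 8.11% of all genes above it. The range was set by the called genes themselves, so these counts are a description. Among 17 other limma fits, not all of them separate, the call was lost in 7 for Ndufs8, 4 for Ndufa11 and 3 for Uqcrc1. For Ndufa10 it was lost in 8 of 16, and the methods' paired t-test called none of the 5. Without the first undifferentiated array, or without the first differentiated array, Ndufa11, Ndufs8 and Uqcrc1 were not called, and without the second undifferentiated array Ndufa10, Ndufa11 and Ndufs8 were not.

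Genes with several probes show how far the value depends on the probe. In the 21 members with several tested probes, the brightest probe was never called, while 2 of the 28 dimmer probes fell, those of Sdhb (-2.16) and Cox7a2l (-2.15). The dimmer Sdhb probe was 1.58 and 1.81 undifferentiated, -0.85 and -0.08 differentiated, and 1.14 and 0.46 with cabozantinib, without overlap, whereas the brightest differed by 0.38. For Cox7a2l, a factor of supercomplex assembly, the dimmest probe was 1.61 and 2.07, then -0.23 and -0.39, then 1.36 and 0.52, and the brightest differed by 0.47. The probes of 5 of the 21 genes (23.8%) differed by more than 1 on the log2 scale, which was the case for 42.2% of all 3382 genes with several tested probes. No second probe was there to read the 5 members that fell.

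**Figure D5:**
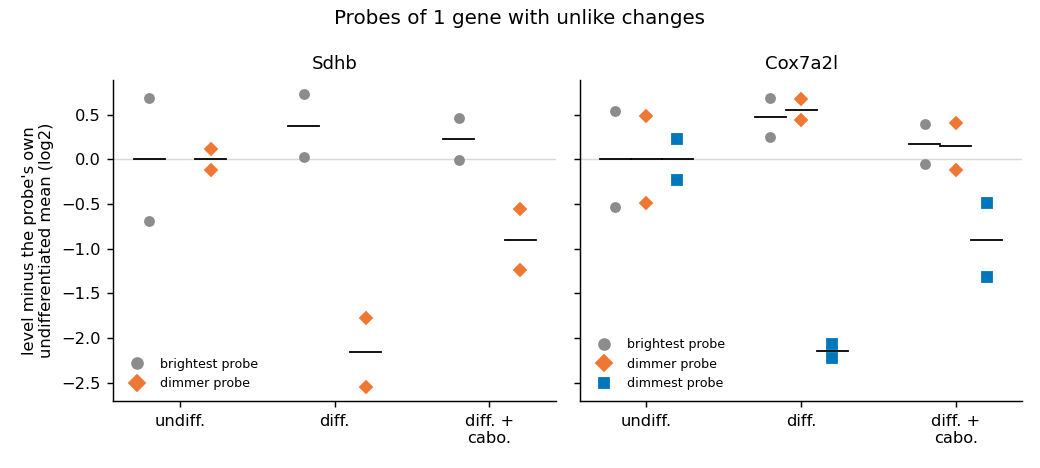
Level of each tested probe of Sdhb and Cox7a2l on each array, as the difference from the undifferentiated mean of the same probe (y axis, log2), in the 3 groups (x axis). Marks are single arrays and black lines means of 2. In differentiated cells the dimmest probe of each gene has a mean more than 2 below its undifferentiated mean, and the brightest probe is not.

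Other genes of mitochondrial function were read from lists of names. The subunits and carriers outside the name rule, Ndufab1, Cyc1, Cycs and Atpif1, had none of 4 called in either comparison. Of 41 assembly factors, which build the complexes, none was called and the median was 0.05. Of 16 genes of the citric acid cycle 3 fell with differentiation, Idh3b (-3.35), Pdha1 (-2.91) and Suclg1 (-1.89). Of 76 mitochondrial ribosomal proteins 4 fell (Mrpl28, Mrpl37, Mrpl46 and Mrps9), and so did 4 of 85 cytosolic ribosomal proteins (Rpl19, Rpl21, Rpl28 and Rps19). For both ribosomal lists this is near the 4.45% of all genes that were called lower, and is no result about them. None of these lists had a gene that rose, and their 11 called genes were 0.58 to 1.80 higher with cabozantinib than in the same differentiated arrays, without passing the test. These genes were picked for low values on the differentiated arrays, which alone raises the second difference, so the values are a description only.

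The effect of cabozantinib was asked by comparing treated with untreated differentiated osteoblasts. No member passed the test with the replicate number in the fit, where the smallest adjusted p was 0.0715 (limma) and 6 of 81 members had an unadjusted p under 0.05. Over all genes 0.121% were called higher and 2.55% lower. Without the replicate number 3 members passed, of which Cox8b and Cox6a2 were lower and Atp5d was higher, against 0.81% of all genes higher and 12% lower. Atp5d, Cox4i2 and Cox8b passed without either undifferentiated array. The median of the members was -0.13, against -0.29 over all genes, and 75 members changed by less than 2-fold. Quantile normalization moved the median of all genes to -0.08 and that of the members to 0.04, so that only its place above all genes was kept. By complex the medians were -0.07 (I), -0.27 (II), -0.16 (III), -0.25 (IV) and -0.10 (V).

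The 3 lowest values with cabozantinib were all tissue-restricted isoforms of complex IV. Cox6a2 was 0.38 and -0.54 in differentiated cells, -2.41 and -1.86 with cabozantinib, and -0.01 and -1.20 in undifferentiated cells. Both cabozantinib arrays lay below the other 4, by -2.05 (95% interval -3.32 to -0.78, adjusted p = 0.0715, limma) from the differentiated mean. Cox8b differed by -2.05 (interval -3.38 to -0.72, limma adjusted p = 0.0788) and Cox4i2 by -1.59 (interval -2.87 to -0.32, limma adjusted p = 0.130), and in both the arrays of the compared groups did not overlap. Such a gap was common, since 10196 of all 23082 genes tested had both cabozantinib arrays below both differentiated ones, as had 9 of the 81 members. The widely expressed isoforms Cox8a (-0.07), Cox4i1 (0.11) and Cox6a1 (-0.12) stayed close to 0, each with an SE of 0.53 to 0.55.

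Cox6b2, by contrast, was 0.62 (SE 0.54) higher with cabozantinib, and Cox7a1 differed by -0.26 and Ndufa4l2 by -0.57, none of which passed the test. Cox6b1 was 0.95 higher (SE 0.49, adjusted p = 0.292, limma). Cox7c differed by -0.52 and Sdhd by -0.43, and in both the cabozantinib arrays lay below the differentiated ones, a pattern common over all genes.

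Of the 5 members that fell with differentiation, 4 were higher with cabozantinib than in differentiated cells, and in these 4 both treated arrays lay above both untreated ones. Over all 23082 genes tested in this comparison 3091 lay apart in this way and 10196 the other way. Among the 81 members 7 were apart higher and 9 lower. Since both comparisons use the differentiated arrays, a low value there lowers one and raises the other, and the values are given side by side only. The differences were 1.63 for Ndufs8, 1.60 for Atp5d, 1.44 for Ndufa11, 0.83 for Uqcrc1 and -0.55 for Ndufa10. Without 1 array they ranged from 0.94 to 2.32 for Ndufs8, 1.27 to 1.94 for Atp5d, 0.67 to 2.22 for Ndufa11 and 0.17 to 1.497 for Uqcrc1, and Ndufa10 changed sign. The lowest adjusted p among them was 0.0919 (Atp5d, 95% interval 0.49 to 2.72, limma).

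Among 11 tested regulators of mitochondrial genes, none was called with differentiation and 1 was called lower with cabozantinib. It was Ppargc1a, the coactivator PGC-1alpha that drives mitochondrial biogenesis. Its levels were -4.58 and -5.45 undifferentiated, -4.66 and -3.14 differentiated and -6.82 and -6.64 with cabozantinib, and the probe was not well above background on either cabozantinib array. With its cabozantinib values set at the lowest signal well above background on each array, it was 2.98-fold lower than in differentiated cells. The signal at which a probe is well above background differs between probes, so this is no strict bound. It was not tested. The adjusted p of 0.0488 (limma) is that of the fitted difference, -2.83, which uses the cabozantinib values not well above background. With quantile normalization no gene of any kind was called in this comparison. The factors Nrf1, Gabpa, Esrra, Yy1 and Tfam lay within -0.39 and 0.31.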

How the data were processed

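The files hold the scanner output of 6 one-color Agilent arrays and a table of values of the same arrays. Per the file headers, the intensities were background-subtracted and detrended within each array by Feature Extraction 11.0.1.1 and were not scaled between arrays. The authors deposited log2 values as well, and how these were made is not given in the sources used here.

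Control spots and outlier spots were removed, signals were put on the log2 scale, each array's 75th percentile was taken off, and the spots of a probe were averaged. Probes were named through RefSeq accessions, which named 69.1% of the 39429 probes. The 27236 probes well above background on at least 2 arrays were fitted with limma 3.58.1 in R 4.3.3, with condition and replicate number as terms (2 residual and 7.69 prior degrees of freedom), since the methods name a paired test. P-values were adjusted by Benjamini-Hochberg over all probes tested, and a gene was called at an adjusted p under 0.05, and was read at the probe brightest on average. The fit was tested on simulated data. Tables were handled with pandas 2.3.3 in Python 3.11.15. With 2 arrays a group, the number of arrays limits the precision.

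The members, the lists and the rules were chosen with earlier results of these data known. One gene is not reported here and is left out of the members and their counts. Genes named are the 5 highest and 5 lowest members in each comparison among those well above background on all arrays, the tissue-restricted isoforms, the extremes of each complex and the called members. Ndufa10, the probes of Cox7a2l, and other genes given to fill out a complex were named after their values were seen. Alternatives were quantile normalization, the deposited log2 values, normexp background correction, other filters, no replicate block, other variance settings, averages over the probes of a gene, the methods' paired t-test and leaving out each array. Normexp (offset 50, run on median signals since the files hold no mean signals), centring on ribosomal protein genes and an exchange of the replicate numbers of the undifferentiated arrays were chosen after seeing the data.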

Additional observations from a re-analysis of the deposited data

How the results depend on the processing

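With differentiation, 7 members were called. The count was 5 with the deposited values, 4 without a filter on dim probes, 4 with normexp, 4 with quantile normalization and 2 when arrays were centred on the ribosomal protein genes. The methods' paired t-test with a 2-fold change called 0 members, and 857 of all genes. After Benjamini-Hochberg it called no gene of any kind, so its 0 there says nothing about the members. Leaving out 1 array gave 3 to 7, and moved the median difference between -0.65 and 0.82. With cabozantinib, 0 members were called, and 1 (Cox8b) by the paired t-test with a 2-fold change. The replicate numbers were not shown to pair the arrays. The deviations of same-numbered arrays correlated at -0.51 between undifferentiated and differentiated, -0.53 between undifferentiated and cabozantinib and 0.26 between differentiated and cabozantinib arrays. Without the replicate block 7 members were called with differentiation, with Cox6b1 gained and Ndufa10 lost, and 3 with cabozantinib, and with the block on the 4 arrays compared 7 and 3. With the undifferentiated numbers exchanged they were 8 and 7, and 6029 of all genes were called with differentiation, against 2242 in the main fit. Leaving out 1 array gave 0 to 3 with cabozantinib. The median with cabozantinib lay between -0.58 and 0.28 without 1 array. Of 18 genes followed with differentiation 10 never changed sign, and neither did 11 of 17 with cabozantinib. Sdhc turned to -0.27 with differentiation at the mean of its probes. With cabozantinib, Sdhb turned to 0.0238 with the deposited values, 0.0242 with quantile normalization and 0.56 at the mean of its probes, and Ndufa10 to 0.36 with each of these scalings. Without 1 array, the differences with differentiation ranged from -0.22 to 1.24 for Cox6c, -0.81 to 0.53 for Cox6b2, -1.13 to 0.10 for Cox7a1, -0.65 to 1.38 for Ndufa4l2, -0.36 to 0.70 for Sdhc, -0.11 to 0.87 for Sdhd, -0.20 to 1.11 for Uqcrb and -0.35 to 1.08 for Atp5j. Those with cabozantinib ranged from -1.24 to 0.10 for Ndufa4l2, -0.72 to 0.20 for Cox7a1, -0.73 to 0.43 for Sdhb, -1.07 to 0.0759 for Uqcrb, -0.95 to 0.0652 for Atp5j and -1.24 to 0.14 for Ndufa10. The cause of these changes was not tested. With 2 arrays a group, a difference under about 1.24 on the log2 scale was not detectable for a typical member, even before adjustment. The adjusted test used for the calls asked for more. In the main fit with differentiation, Cox6b1 at -1.31 was not called (adjusted p = 0.149, limma).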
